A study of Mus musculus with 8 samples.

Results

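MIL neurons are a small set of inhibitory interneurons of the low thoracic mouse spinal cord, and their 72 nuclei were followed here through 8 single-nucleus RNA sequencing libraries. They were taken as every nucleus whose deposited subtype name begins with MIL, which selected 72 of 4076 neurons and of 12447 nuclei in all. The name covers a pair of subtypes, the larger with 48 nuclei and MIL_Arhgap6 with 24 nuclei. In these names M was read as middle and I as inhibitory, and the last letter is not explained in the sources used here. The 144 nuclei of MIP, the inhibitory subtype MIP_Tfap2b that shares the first letters of the name, served as the nearest comparison, followed by all other neurons. The annotation holds 28 neuron subtypes in 11 families of names.

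All mice were C57BL/6 wild type, and the low thoracic cord was sampled in each case. Experiment 3 gave 1 library of regenerating neurons, sorted on GFP by their projection. In experiment 1 the neurons of 2 uninjured replicates were sorted into traced neurons, which carried GFP because they project to the walking centres of the lumbar cord, and untraced nuclei without GFP. In experiment 2 there were 2 libraries after a hemisection of the cord, called hemisection 1 and 2, and 1 uninjured library, called uninjured 1. The untraced fraction holds nuclei sorted as lacking GFP, neurons with other targets included. Whether it also holds unlabelled neurons that project to the lumbar cord was not tested. The traced libraries held 15 and 2 non-neuronal nuclei, so they are not traced neurons alone. The labels do not say that hemisection 1 and 2 came from separate animals, and the titles of experiment 1 do not name animals either. The p-values therefore measure only the spread between libraries, which may be technical.

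Inhibitory interneurons of the spinal cord release GABA, glycine or both. GABA is made by the glutamate decarboxylases Gad1 and Gad2, either transmitter is loaded into vesicles by the transporter Slc32a1, and glycine is taken back up at terminals by Slc6a5. In the middle layers of the cord such cells shape the signals that pass between sensory fibres and the motor circuits that drive stepping. Each nucleus gives UMI counts, numbers of distinct captured transcripts, and levels below are in CPM, the UMIs of a gene as a share of all UMIs of the named set of nuclei, scaled to counts per 1000000. Intervals in brackets are exact 95% intervals that cover counting error only.

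The 72 MIL nuclei held 763956 UMIs, with a median of 9577 per nucleus, close to the medians of 9881 in MIP and 8268 in the other neurons. The depth of single MIL nuclei ran between 451 and 25088 UMIs. Of the MIL nuclei, 5 had fewer than 2500 UMIs, and these were 4 MIL_Arhgap6 nuclei of hemisection 1 with 1191 to 2074 UMIs and the 1 nucleus of the larger subtype in the regenerating library with 451 UMIs. The same 5 nuclei were the ones without a UMI of Gad1, Gad2, Slc32a1 or Slc6a5, so their inhibitory identity rests on the deposited name. No MIL nucleus shared a barcode sequence with another library (0 found). Marker sums of other cells in MIL were near those of the other neurons. In the 3 libraries with at least 10 MIL nuclei, summed oligodendrocyte markers lay between 74.8 and 722 CPM in MIL and between 72.0 and 687 CPM in other neurons. Excitatory markers lay between 0 and 13.7 CPM in MIL and between 125 and 151 CPM in other neurons.

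MIL was rare in every library. The regenerating library held 1 MIL nucleus among 238 neurons (0.42%, up to 2.32). Traced replicate 1 held 2 MIL nuclei among 80 neurons (2.5%, 0.304 to 8.74) and traced replicate 2 held 0 among 25, for which 3 counts, the limit that a count of 0 allows, would be 12% and the exact interval reaches 13.7%. Untraced replicate 1 held 12 among 354 (3.39%, 1.76 to 5.85) and untraced replicate 2 held 1 among 123 (0.813%). Hemisection 1 held 18 among 1000 (1.8%, 1.07 to 2.83), hemisection 2 held 1 among 108 (0.926%), and uninjured 1 held 37 among 2148 (1.72%, 1.22 to 2.37). The intervals of all libraries overlapped.

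**Figure D1:**
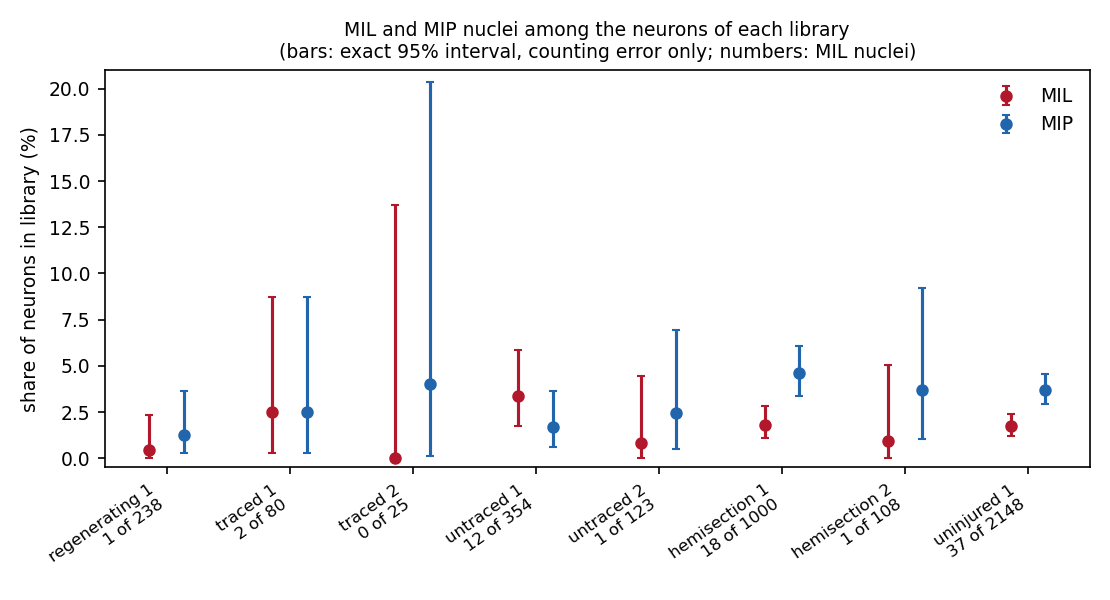
Shares of MIL (red) and MIP (blue) nuclei among the neurons of each library, in percent, with exact 95% intervals. The MIL share ran between 0 in traced replicate 2, with 25 neurons, and 3.39% in untraced replicate 1, and the wide bars belong to the libraries with few neurons.

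The split on GFP asked which neurons of the uninjured cord reach the lumbar centres. The MIL share averaged 1.25% ± 1.77 in traced neurons and 2.10% ± 1.82 in untraced neurons (SD, n = 2 libraries each). Among the 11 families, edgeR's quasi-likelihood test on numbers of nuclei called 2 (18.2%) at a Benjamini-Hochberg adjusted p below 0.05, and MIL was not one of them, with a log2 ratio of -0.51 (SE 1.51) and an adjusted p of 0.813. The SE is larger than the ratio, and the log2 ratio was 1.20 without untraced replicate 1. Both traced MIL nuclei were of the larger subtype, and traced libraries held 0 MIL_Arhgap6 nuclei.

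After hemisection the MIL share was 1.36% ± 0.618 (SD, n = 2 libraries), against 1.72% in the uninjured library. edgeR's test called 4 of the 11 families (36.4%) and not MIL, whose log2 ratio was -0.0091 (SE 0.60) with an adjusted p of 0.988. The uninjured arm is 1 library, as is the regenerating arm, so the spread comes from the groups with 2 libraries and the lone library is assumed to vary like them. MIP averaged 4.15% ± 0.634 after hemisection and 3.68% in the uninjured library, a log2 ratio of 0.29 (SE 0.34) and an adjusted p of 0.541. Hemisection 1 had 11 nuclei of the larger subtype and 7 MIL_Arhgap6 nuclei, or 38.9% MIL_Arhgap6, against 25 and 12 in uninjured 1, or 32.4%. Untraced replicate 1 had 8 and 4, or 33.3%. Of the 7 MIL_Arhgap6 nuclei of hemisection 1, 4 had fewer than 2500 UMIs, and without nuclei of that depth the library had 3 MIL_Arhgap6 nuclei of 14 (21.4%). The mix was not tested.

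In the regenerating library the share was 0.42%, against the traced mean of 1.25%, a log2 ratio of -2.12 (SE 2.40) with an adjusted p of 0.551. edgeR called 0 of 11 families there (0%), with 1 family at an unadjusted p below 0.05. The 1 regenerating MIL nucleus had 451 UMIs, and it gave no UMI of any of the 11 genes plotted for each nucleus. Its transcriptome is not described further.

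MIL nuclei carried the transcripts of neurons that use GABA and glycine together. At least 1 of Gad1, Gad2, Slc32a1 and Slc6a5 was seen in 67 of 72 nuclei (93.1%), against 445 of 2529 excitatory neurons (17.6%), a cell type that should lack these genes. With every nucleus thinned to 1000 UMIs, in the 3 libraries with at least 10 MIL nuclei, Slc6a5 was seen in 20.9% of MIL nuclei and 1.12% of excitatory neurons, against 82.1% and 5.77% before thinning, at median depths of 9598 and 7943.5 UMIs. Slc6a5 together with Gad1 or Gad2 was seen in 49 of 72 nuclei (68.1%). Slc17a6, the vesicular glutamate transporter of most excitatory spinal neurons, was seen in 5 of 72, all in uninjured 1.

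Gad1 (chromosome 2, 70553072 to 70602014, GRCm38) had 60.7 CPM (32.3 to 104) in MIL of hemisection 1, 148 CPM (111 to 193) in uninjured 1 and 127 CPM (75.3 to 201) in untraced replicate 1. In MIP Gad1 had 115 and 83.7 CPM in hemisection 1 and uninjured 1, and in all other neurons it had 60.6, 50.5 and 58.5 CPM in hemisection 1, uninjured 1 and untraced replicate 1. MIL therefore stood above the other neurons in uninjured 1 and untraced replicate 1, and level with them in hemisection 1. Slc32a1 (chromosome 2, 158610767 to 158615748) had 51.4, 347 and 70.6 CPM in MIL of hemisection 1, uninjured 1 and untraced replicate 1, against 19.4, 147 and 55.8 CPM in all other neurons. The uninjured library of experiment 2 was thus high in Slc32a1 in MIL and in the other neurons alike. Slc6a5 (chromosome 7, 49910146 to 49963856) was steadier, with 243, 336 and 240 CPM in MIL of the 3 libraries, against 60.9, 108 and 63.3 CPM in all other neurons. In MIP it had 239 CPM in hemisection 1 and 229 CPM in uninjured 1.

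**Figure D2:**
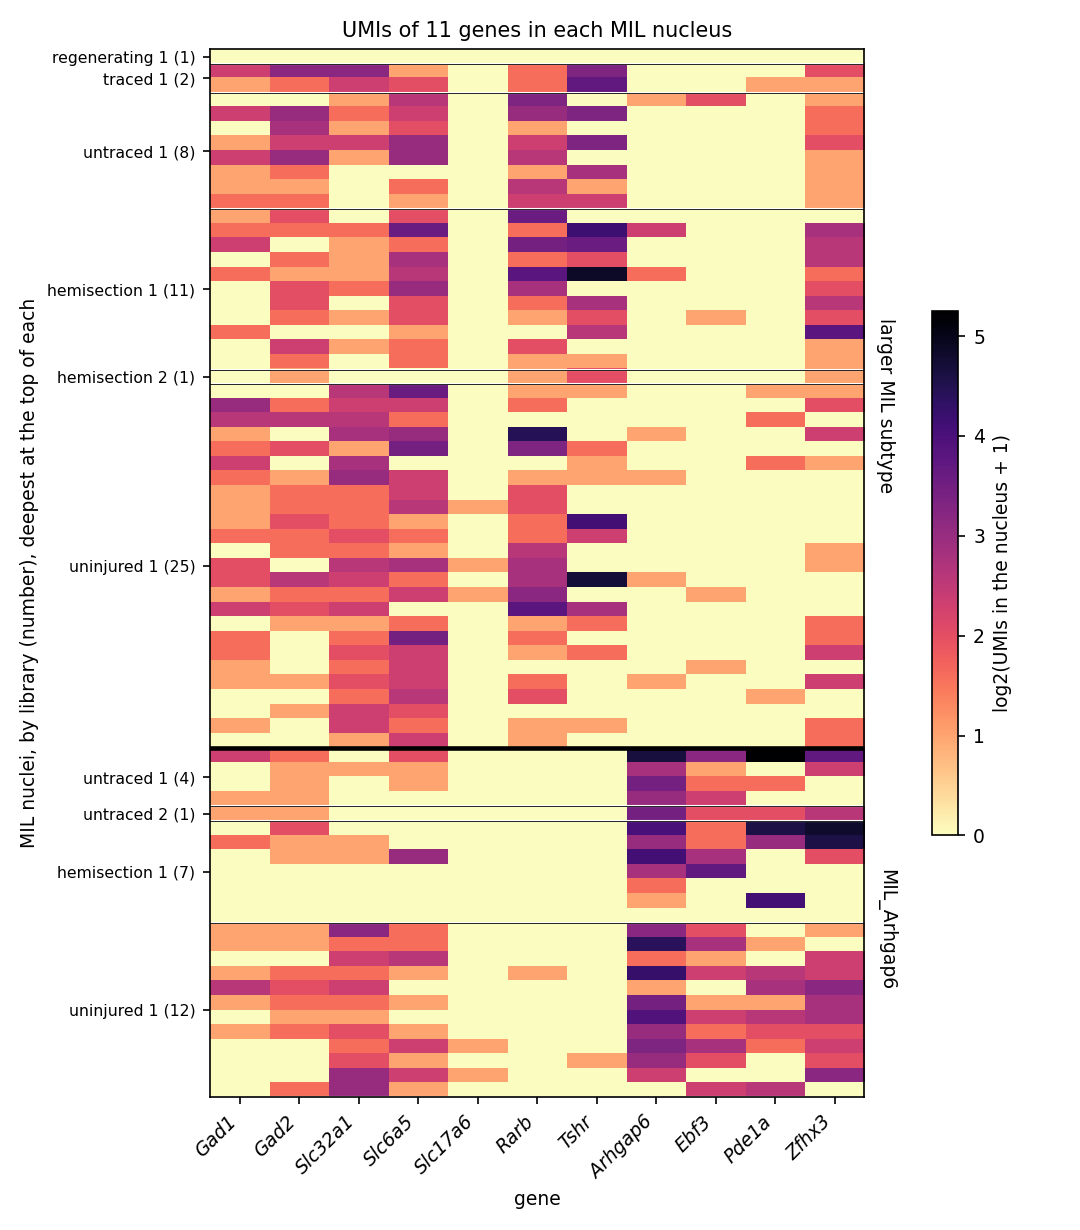
UMIs of 11 genes (columns) in each of the 72 MIL nuclei (rows), as log2(UMIs + 1), grouped by subtype and library and ordered by depth. Inhibitory genes fill the left columns of both subtypes, Rarb and Tshr fill the block of the larger subtype, and Arhgap6, Ebf3 and Pde1a fill the MIL_Arhgap6 block.

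The MIL subtypes had few leading genes in common. The subtypes were named from these same counts, so the values describe them and carry no test. Arhgap6 (chromosome X, 168795099 to 169304435), a GTPase-activating protein, had 777, 918 and 1224 CPM in MIL_Arhgap6 of hemisection 1, uninjured 1 and untraced replicate 1, against 39.1, 15.6 and 9.68 CPM in the larger subtype. Ebf3 (chromosome 7, 137193673 to 137314445), a transcription factor of neuronal differentiation, had 364, 312 and 391 CPM in MIL_Arhgap6, against 6.51, 7.79 and 29.0 CPM in the larger subtype. In hemisection 1, 12 UMIs of Ebf3 lay in 1 MIL_Arhgap6 nucleus of 2074 UMIs, and at most 6 in any other. That nucleus had no UMI of Gad1, Gad2, Slc32a1 or Slc6a5. Another such nucleus, of 1875 UMIs, held 16 UMIs of Pde1a. Over the 3 libraries together the ratio of MIL_Arhgap6 to the larger subtype was 43.6 (23.8 to 88.8) for Arhgap6, 29.2 (12.8 to 82.4) for Ebf3 and 46.5 (20.7 to 129) for Pde1a, a calmodulin-dependent phosphodiesterase. Arhgap6 is not restricted to that subtype: in uninjured 1 the DE family of dorsal excitatory neurons had 1629 CPM of Arhgap6. Nor is Ebf3, which was seen in 74.1% of excitatory neurons and 78.3% of MIL_Arhgap6 nuclei of the 3 libraries.

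The larger MIL subtype was marked by Tshr (chromosome 12, 91384563 to 91549808), the receptor for thyrotropin, and by Rarb (chromosome 14, 16430839 to 16819156), a retinoic acid receptor. Tshr had 482, 238 and 281 CPM in the larger subtype of hemisection 1, uninjured 1 and untraced replicate 1, and 0, 9.18 and 0 CPM in MIL_Arhgap6. Rarb had 332, 362 and 348 CPM in the larger subtype, with little spread between libraries, and 0, 9.18 and 0 CPM in MIL_Arhgap6. In uninjured 1 the other genes that led the larger subtype were Shisa9, which binds AMPA receptors, the heparan sulfate enzyme Ndst4, Nkain3 and the nuclear factor Tox, with ratios over MIL_Arhgap6 between 23.3 and 26.7 that each rest on 1 or 2 UMIs in MIL_Arhgap6. Over the 3 libraries together the ratio was 7.13 (3.52 to 16.8) for Shisa9, 11.2 (4.71 to 35.2) for Ndst4, 11.3 (5.65 to 26.6) for Nkain3 and 27.3 (7.42 to 228) for Tox. Those that led MIL_Arhgap6 beside Arhgap6 and Ebf3 were Spon1, a secreted adhesion protein, the phospholipase Plch1, the lipid phosphatase Plpp3 and the cation channel Trpc7, with ratios between 30.6 and 37.7 that each rest on 1 UMI in the larger subtype. Over the 3 libraries these ratios were 25.5 (7.97 to 131) for Spon1, 111 (19.0 to 4489) for Plch1, 17.3 (3.97 to 157) for Plpp3 and 56.8 (9.23 to 2341) for Trpc7. Of 7911 genes with at least 20 CPM in either subtype, 1227 (15.5%) were at least 2-fold higher in the larger subtype and 1064 (13.4%) at least 2-fold lower.

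Single nuclei followed the split. Among the 48 nuclei of the larger subtype Rarb was seen in 42 and Tshr in 27, against 1 of 24 MIL_Arhgap6 nuclei for each gene. Arhgap6 was seen in 22 of 24 MIL_Arhgap6 nuclei and Ebf3 in 19, against 7 and 4 of the 48 nuclei of the larger subtype. Pde1a was seen in 14 of 24 MIL_Arhgap6 nuclei and in 5 of 48 of the larger subtype. Zfhx3 did not part the subtypes by nuclei, with 16 of 24 and 33 of 48. The 2 traced nuclei were rich in Tshr, with 21 UMIs between them, against 29 UMIs over the 8 nuclei of the larger subtype in untraced replicate 1.

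Both subtypes carried the transmitter genes. Over the 3 libraries Slc6a5 was 2.08-fold (1.44 to 3.10) higher in the larger subtype than in MIL_Arhgap6, while Gad1 had a ratio of 1.62 (0.941 to 2.94), Gad2 1.45 (0.913 to 2.38) and Slc32a1 0.843 (0.592 to 1.22), each with an interval that holds 1. Among identity factors Lhx1, a LIM homeodomain factor of spinal interneurons, was 2.93-fold (1.43 to 6.10) higher in MIL_Arhgap6 than in the larger subtype. Pax2, which marks inhibitory spinal neurons, had a ratio of 1.65 (0.855 to 3.10) in the same direction. Zfhx3, a zinc finger homeodomain factor, had 876, 431 and 417 CPM in MIL_Arhgap6 of hemisection 1, uninjured 1 and untraced replicate 1, against 287, 105 and 116 CPM in the larger subtype, 3.45-fold (2.58 to 4.63) higher over the libraries together.

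MIL and MIP were set against each other in hemisection 1 and uninjured 1, the libraries with at least 10 nuclei of each, with both libraries at equal weight. These comparisons of named clusters describe levels and carry no test. Of 7638 genes with at least 20 CPM on either side, 219 (2.87%) were at least 2-fold higher in MIL and 327 (4.28%) at least 2-fold lower. Among the 3940 genes seen in at least 25% of MIL nuclei at a mean of at least 50 CPM, 80 (2.03%) were at least 2-fold higher in MIL, 76 of them on that side in both libraries. Tshr had 346 and 170 CPM in MIL of hemisection 1 and uninjured 1, against 65.5 and 20.9 CPM in MIP, a ratio of means of 5.96. Skor2, a corepressor, had 88.8 and 21.9 CPM in MIL, against 7.02 and 9.85 CPM in MIP, a ratio of 6.56. Gfra1, the co-receptor for the neurotrophic factor GDNF, averaged 211 CPM in MIL and 51.7 CPM in MIP, although the other neurons had 123 and 118 CPM of Gfra1 in these libraries.

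The other genes that led MIL over MIP were Mme, a peptide-degrading membrane protease, March11, a ubiquitin ligase, Prkd1, a protein kinase, the nuclear receptor Pparg, the guanine nucleotide exchange factor Arhgef3, Ccdc171, Cep128 and Hbb-bs, with ratios between 3.32 and 5.26. Hbb-bs is a beta-globin of red blood cells, and its mean of 432 CPM in MIL, against 98.8 CPM in MIP, rested on hemisection 1, where 84 of its 164 UMIs lay in 1 MIL nucleus.

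MIP was higher than MIL in a different set. Adarb2, a brain relative of the RNA-editing deaminases, had 220 and 131 CPM in MIL of hemisection 1 and uninjured 1, against 2179 and 907 CPM in MIP, where the mean was 8.80 times that of MIL. Adarb2 was low in MIL against most neurons, since all other neurons had 1118 and 740 CPM in the same libraries. Nfib, a nuclear factor I protein, had 4.67 and 49.2 CPM in MIL, against 145 and 171 CPM in MIP. In MIL_Arhgap6 no UMI of Nfib was counted in any library (0 of 216110 UMIs). The others were Fign, Dpf3, Gpc3, Stxbp6, Pdzrn3, Kcnh5, Tmem132d, Otof and Pcsk6, with MIP over MIL ratios between 5.24 and 8.56. With every nucleus thinned to 1000 UMIs, the log2 ratio of MIL over MIP was -0.05 for Stxbp6, -0.05 for Pcsk6, -0.27 for Fign and -0.69 for Otof, below 2-fold, and 0.53 for Pdzrn3, the other direction. They include a microtubule-severing protein (Fign), a chromatin remodelling subunit (Dpf3), a glypican (Gpc3), a potassium channel (Kcnh5) and a proprotein convertase (Pcsk6).

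Against all other neurons, in the 3 libraries with at least 10 MIL nuclei, 204 of 7702 genes (2.65%) were at least 2-fold higher in MIL and 442 (5.74%) at least 2-fold lower. Of the 3964 genes past the stricter minimums, 93 were at least 2-fold higher, 90 of them on that side in all 3 libraries. Tshr averaged 240 CPM in MIL and 10.6 CPM in other neurons, 22.7-fold higher, and its levels did not overlap between the sets over the 3 libraries. Hcrtr2, the orexin receptor type 2, had 154, 167 and 339 CPM in MIL of hemisection 1, uninjured 1 and untraced replicate 1, against 35.7, 38.2 and 55.0 CPM in other neurons. Hcrtr2 was 2.09-fold (1.48 to 2.94) higher in MIL_Arhgap6 than in the larger subtype, so it belonged to both subtypes.

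Rarb averaged 250 CPM in MIL and 49.5 CPM in other neurons. Elavl4, a neuronal RNA-binding protein, averaged 526 CPM in MIL and 159 CPM in other neurons. Stard5, a cholesterol-binding protein, the transcription factor Mitf, the kainate receptor subunit Grik3, Pparg, Ccdc171, Akain1 and Slc6a5 completed the list, with ratios between 3.18 and 3.87. In uninjured 1 the larger MIL subtype had the highest level of Tshr, Rarb and Slc6a5 among the 12 sets compared, namely the MIL subtypes and the other 10 families, and MIL_Arhgap6 the highest level of Hcrtr2 and Slc32a1. Slc32a1 was close behind in VIP, a ventral inhibitory family, with 351 CPM against 413 CPM (45 UMIs) in MIL_Arhgap6.

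**Figure D3:**
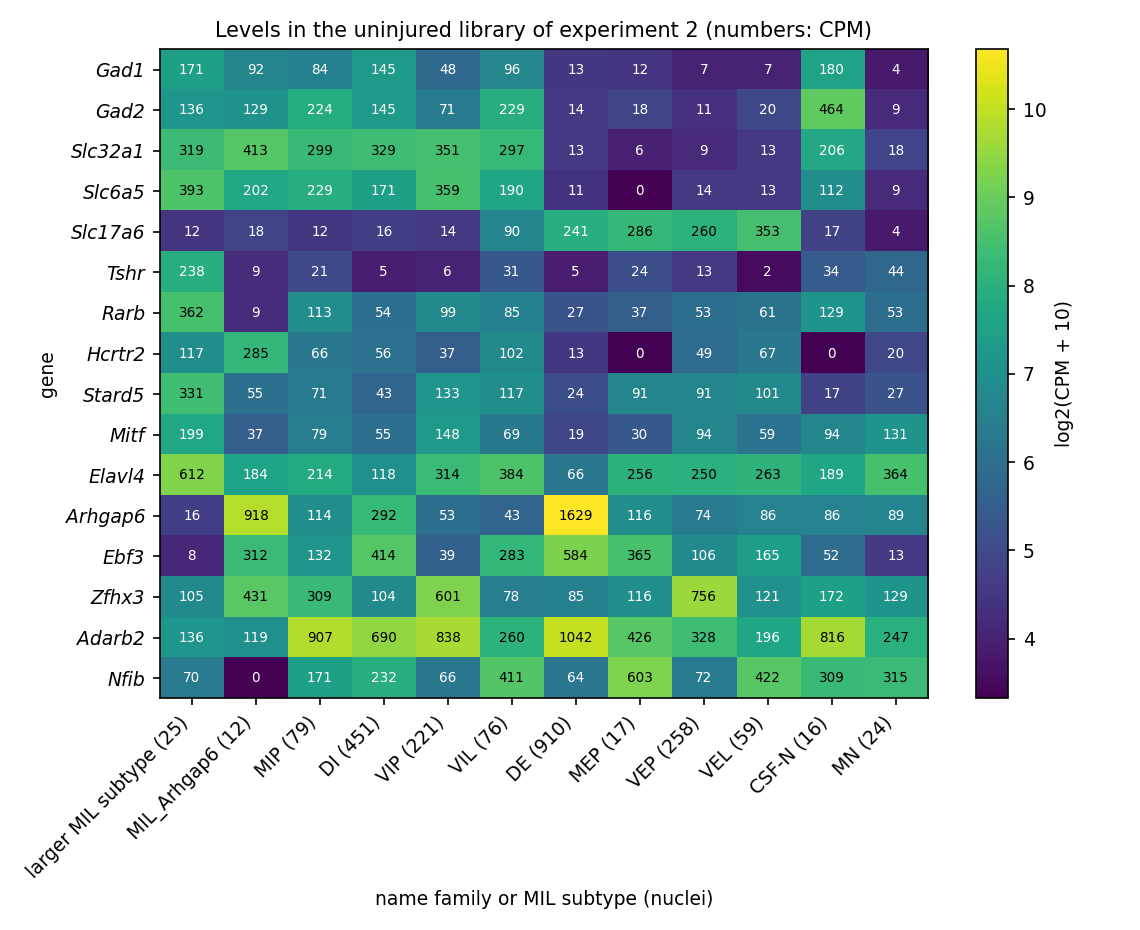
Levels of 16 genes in the MIL subtypes, MIP and the other name families of neurons in the uninjured library of experiment 2. Cells give CPM and colours log2(CPM + 10), and numbers of nuclei stand beside the names. Tshr is at 238 CPM in the larger MIL subtype and at 44 CPM or less elsewhere, while Arhgap6 is at 918 CPM in MIL_Arhgap6 and 1629 CPM in the dorsal excitatory family DE.

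Gene lists of spinal neurons place MIL further. Of 6 GABA and glycine transmission genes with at least 20 CPM in MIL or other neurons, 3 were at least 2-fold higher in MIL, and 1 was lower, with a median log2 ratio of 1.03, beside 2.65% and 5.74% of all genes. Slc6a5, Slc32a1 and Gad2 were the higher ones, and Gad1, at 112 CPM in MIL and 56.5 CPM in other neurons, was just under 2-fold. Against MIP 0 of 6 were higher and 1 was lower. Neuropeptides of inhibitory neurons were scarce: 5 of 6 were at least 2-fold lower in MIL than in other neurons and 4 of 5 lower than in MIP, beside 5.74% and 4.28% of all genes. Summed over the list, MIL had 60.7 CPM and MIP 46.8 CPM in hemisection 1, against 139 and 519 CPM in uninjured 1. The summed difference from MIP thus lay in uninjured 1 alone. Penk, the enkephalin precursor, averaged 9.57 CPM in MIL and 90.8 CPM in MIP, and its 140 MIP UMIs of uninjured 1 made up nearly all of that mean. Sst, the somatostatin precursor, averaged 14.1 CPM in MIL and 254 CPM in other neurons, and Npy 5.20 and 40.7 CPM. Nos1, the neuronal nitric oxide synthase, averaged 8.38 CPM in MIL and 70.6 CPM in MIP, where 54 UMIs came from 6 of 46 MIP nuclei of hemisection 1.

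Dorsal excitatory factors were low in MIL, with 7 of 8 at least 2-fold lower than in other neurons, beside 5.74% of all genes, and 1 higher, Skor2. Ebf1, the most abundant of them, averaged 75.9 CPM in MIL and 2516 CPM in other neurons, and 456 CPM in MIP against 89.2 CPM in MIL. Pax2 averaged 57.9 CPM in MIL and 239 CPM in MIP. Lhx1 went the other way, with 55.7 CPM in MIL and 19.1 CPM in MIP. Esrrb, an orphan nuclear receptor, had 65.4, 32.8 and 21.2 CPM in MIL of hemisection 1, uninjured 1 and untraced replicate 1 on 14, 12 and 3 UMIs, and averaged 39.8 CPM there and 5.13 CPM in other neurons. Pvalb, the calcium buffer parvalbumin, averaged 35.2 CPM in MIL and 11.3 CPM in other neurons, with 24 of its 31 UMIs in uninjured 1. It was the 1 higher member of 6 calcium-binding and nitric oxide genes, of which 3 were at least 2-fold lower, Calb1, Calb2 and Necab2.

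Channel, receptor and guidance genes lay on both sides of other neurons. Of 30 potassium and sodium channel genes 1 was at least 2-fold higher and 5 lower in MIL than in other neurons, with a median log2 ratio of 0.02, beside 2.65% and 5.74% of all genes. The higher one was Kcnmb2, an auxiliary subunit of calcium-activated potassium channels, at 859 CPM in MIL and 293 CPM in other neurons. Kcnq5, a slow potassium channel, averaged 88.2 CPM in MIL and 584 CPM in other neurons, and it averaged 111 CPM in MIL and 578 CPM in MIP. Of 16 ionotropic glutamate receptor subunits 1 was higher and 1 lower, and of 15 GABA-A and glycine receptor subunits 0 were higher and 1 lower. The lower one was Gabrg3, a GABA-A receptor subunit, at 529 CPM in MIL and 1132 CPM in other neurons. Of 19 peptide, opioid and monoamine receptors 4 were higher and 6 lower, with a median log2 ratio of -0.07. Htr2c, a serotonin receptor and one of the higher ones, averaged 1381 CPM in MIL and 585 CPM in other neurons, and Htr1f 269 and 110 CPM. Oprm1, the mu opioid receptor and one of the lower ones, averaged 47.1 CPM in MIL and 115 CPM in other neurons. Of 40 axon guidance and adhesion genes 3 were higher and 6 lower, with a median log2 ratio of -0.20. The guidance ligand Slit2 averaged 867 CPM in MIL and 309 CPM in other neurons, while Sema6d, a semaphorin, averaged 248 CPM in MIL and 671 CPM in other neurons. Hoxc5, 1 of 10 Hox genes compared and the 1 past 2-fold, averaged 222 CPM in MIL and 101 CPM in other neurons.

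Over whole profiles each MIL subtype was closest to MIP rather than to the other MIL subtype. Profiles of 2000 genes were compared in uninjured 1 over 27 subtypes, each summed over 12 nuclei and thinned to 40000 UMIs, and the coefficients describe these sums, which share 1 library. The Spearman coefficient of the larger subtype was 0.845 with MIP, the first of 26, and 0.811 with MIL_Arhgap6, the eighth. That of MIL_Arhgap6 was 0.835 with MIP, again the first, and 0.811 with the larger subtype, the second. With all nuclei of each subtype MIP stayed first for both, at 0.842 for the larger subtype and 0.828 for MIL_Arhgap6. The differences at the top are small, and 4 subtypes lay between 0.828 and 0.830 behind MIP for the larger subtype.

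**Figure D4:**
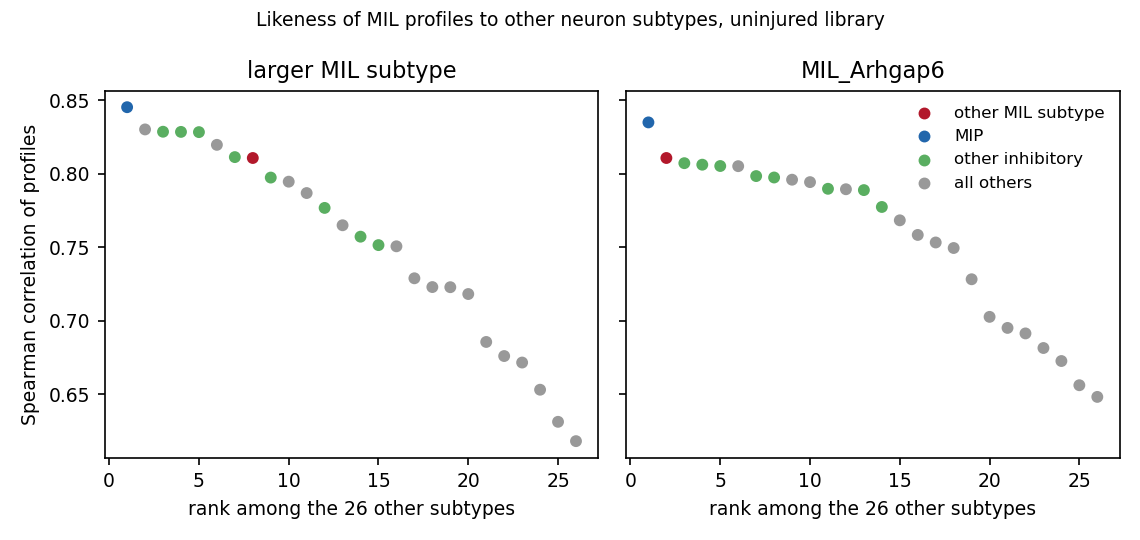
Spearman correlation of the profile of each MIL subtype with the 26 other neuron subtypes in the uninjured library of experiment 2, ordered by rank. MIP (blue) is first for both at 0.845 and 0.835, and the other MIL subtype (red) is eighth for the larger subtype and second for MIL_Arhgap6.

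Genes within MIL could be compared between conditions only for hemisection 1, with 18 nuclei, over uninjured 1, with 37 nuclei. With at least 10 MIL nuclei there is 1 library for each condition, which leaves no residual degrees of freedom, so log2 ratios, scaled by the TMM method, have counting intervals alone. Of 5354 genes past the count filter 353 (6.59%) were at least 2-fold higher after hemisection and 708 (13.2%) at least 2-fold lower, with a median log2 ratio of 0.03 over all of them. Counting error alone put 306 of 4944 unchanged genes past 2-fold in simulated sums of the same depth. Of the 353 higher genes 27 were also past 2-fold in all other neurons, and of the 708 lower genes 290 were. The share of all 5354 genes past 2-fold in other neurons was not counted. These 2 numbers therefore do not show which differences are particular to MIL. Untraced replicate 1, with 12 nuclei from uninjured cord, served as a second point of comparison, and 133 genes (2.48%) were past 2-fold higher and 372 (6.95%) lower against both libraries. Named genes are those past 2-fold against both, ranked by the nearer bound of the interval over uninjured 1. Hemisection 2 had 1 MIL nucleus, with 5964 UMIs.

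A fit over all 7 libraries with a MIL nucleus, which leaves 2 residual degrees of freedom, was added after seeing the data, although 4 of these libraries hold 1 or 2 MIL nuclei. edgeR's quasi-likelihood test called 5 of 1287 genes (0.389%) for hemisection over uninjured at an adjusted p below 0.05, with 32 at an unadjusted p below 0.05, and DESeq2 called 0. All 5 were lower and mitochondrially encoded, out of 9 such genes in that fit. mt-Atp6 had a log2 ratio of -5.33 with an adjusted p of 0.0103 (edgeR), and mt-Co2, mt-Nd4, mt-Nd2 and mt-Co1 had adjusted p-values between 0.0125 and 0.0248. Of the interferon genes 1 passed the filter of that fit, Herc6, with a log2 ratio of 3.14, and it was not called. Herc6 had 503 CPM in hemisection 2, from 3 UMIs of the 1 MIL nucleus there. In hemisection 1 it had 46.7 CPM, from 10 UMIs, so the ratio rests in part on 1 nucleus. For traced over untraced the fit called 0 of 1287 genes (0%), with 51 at an unadjusted p below 0.05 in edgeR and 16 in DESeq2, which called 0 too. In simulated counts of hemisection over uninjured, edgeR called 1 of 100 genes with a 4-fold change, so this fit misses most changes of that size. Without hemisection 2 it called 51 genes, without untraced replicate 2 it called 60, without untraced replicate 1 it called 2 and without hemisection 1 it called 1.

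The interferon response genes past the filter were higher in MIL of hemisection 1. All 6 of them, of 25 on the list, reached the filter's level in hemisection 1 and 0 in uninjured 1 or untraced replicate 1. Their number, direction and median are thus shaped by the filter and give no support. Each was at least 2-fold higher against both uninjured libraries, with a median log2 ratio of 3.14 over uninjured 1. The same genes had medians of 1.94 in MIP and 2.24 in all other neurons, whose counts did not enter the filter. Ifit1, an antiviral protein that binds foreign RNA, had 15, 1 and 2 UMIs in hemisection 1, uninjured 1 and untraced replicate 1, a log2 ratio of 4.69 (1.99 to 10.08), and was seen in 5 of 18 nuclei of hemisection 1 and 1 of 37 of uninjured 1. Eif2ak2, the double-stranded RNA kinase PKR, had 21, 4 and 2 UMIs, a log2 ratio of 3.17 (1.61 to 5.17), and was seen in 8 of 18 nuclei of hemisection 1 and 4 of 37 of uninjured 1. Rnf213, Herc6 and Stat2 had log2 ratios of 3.10, 2.10 and 1.54.

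These genes were also higher outside neurons. Ifit1 had 70.1 CPM in MIL and 62.2 CPM in non-neuronal nuclei of hemisection 1, against 2.73 and 4.22 CPM in uninjured 1. Eif2ak2 had 98.1 CPM in MIL and 141 CPM in non-neuronal nuclei of hemisection 1, against 10.9 and 22.1 CPM in uninjured 1. The part of RNA from other cells in the MIL values was not tested. The single MIL nucleus of hemisection 2 had 0 UMIs of Ifit1 and Eif2ak2, 1 of Stat2 and 3 of Herc6.

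Promoters of the interferon members past the filter were read as a description. The list was chosen as interferon response genes, so matches in it give no support to the higher values. The interferon-stimulated response element, a known binding motif of interferon signalling, was searched as GAAA, any 2 bases (NN) and GAAA again, on both strands in the RefSeq promoters of GRCm38.p6, from 250 bases before to 50 bases after each gene start. It was found in 3 of the 5 members with a promoter entry, Ifit1, Eif2ak2 and Stat2, and in 943 of 27025 promoters (3.49%). The matches are shown in capitals, 5′ to 3′ on the strand of the gene. In Ifit1 and Stat2 they lie on the other strand, so that the capitals read as the reverse complement of the motif.
Ifit1, chr19:34640775-34640823, plus strand: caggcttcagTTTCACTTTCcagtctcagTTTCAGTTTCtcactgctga
Eif2ak2, chr17:78882535-78882564, minus strand: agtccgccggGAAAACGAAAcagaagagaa
Stat2, chr10:128270266-128270295, plus strand: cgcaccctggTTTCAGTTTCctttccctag
A match describes these letters and does not show binding.

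**Figure D5:**
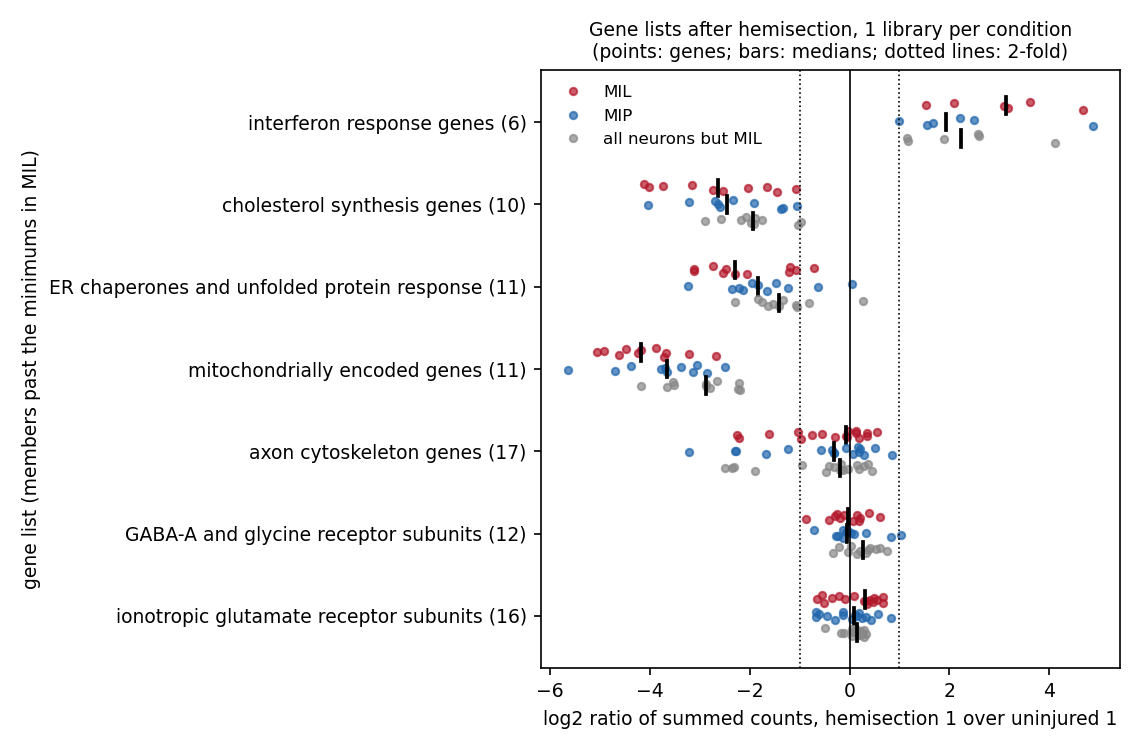
Log2 ratios of summed counts, hemisection 1 over uninjured 1, for the members of 7 gene lists in MIL (red), MIP (blue) and all neurons but MIL (grey), with bars at the medians. The 6 interferon genes of MIL lie between 1.54 and 4.69, the 11 mitochondrial genes below -2.6, and receptor subunits around 0 in all 3 sets of neurons. The interferon genes passed the count filter in MIL through hemisection 1, which shapes their values. All 11 mitochondrial genes reached the filter's level in uninjured 1 and 4 in hemisection 1, which shapes theirs.

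For other genes 1 nucleus of hemisection 1 held much of the UMIs. The globins Hba-a1, Hba-a2, Hbb-bs and Hbb-bt, which carry oxygen in red blood cells, had log2 ratios between 2.95 and 4.99, and 1 nucleus held 37 of 74 UMIs of Hba-a2, 51 of 98 of Hba-a1, 84 of 164 of Hbb-bs and 9 of 18 of Hbb-bt. Hbb-bs was still seen in 14 of 18 nuclei of hemisection 1, against 21 of 37 of uninjured 1, and Hba-a1 in 12 of 18, against 10 of 37. Non-neuronal nuclei of hemisection 1 had 469 CPM of Hbb-bs, against 239 CPM in uninjured 1. Hpse2, a heparanase relative, had 34 UMIs in hemisection 1, 24 of them in 1 nucleus, and was seen in 3 of 18 nuclei. Zfpm2, a cofactor of GATA proteins, had 82 UMIs, of which 55 lay in 1 nucleus, and was seen in 5 of 18. Zfpm2 had a log2 ratio of 1.89 in MIL as a whole and of -1.98 in the larger subtype alone, with 3 UMIs in hemisection 1 and 20 in uninjured 1.

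Hoxb3 was higher through many nuclei. This Hox transcription factor had 33 UMIs in MIL of hemisection 1, 9 in uninjured 1 and 8 in untraced replicate 1, a log2 ratio of 2.65 (1.56 to 3.90), beside 0.82 in all other neurons and 0.76 in MIP. It was seen in 12 of 18 nuclei of hemisection 1 with at most 9 UMIs in 1 nucleus, against 9 of 37 nuclei of uninjured 1 and 6 of 12 of untraced replicate 1. Non-neuronal nuclei had 5.65 CPM of Hoxb3 in hemisection 1, against 17.7 CPM in uninjured 1, the opposite direction, and 3.63 CPM in untraced replicate 1. Of the 6 Hox genes past the filter 2 were past 2-fold, Hoxb3 and Hoxb4, and Hoxb4 at 2.04 over uninjured 1 had 0.26 over untraced replicate 1.

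Genes that mark the larger MIL subtype were also counted. Tshr had 74 UMIs in hemisection 1 and 62 in uninjured 1, a log2 ratio of 1.04 (0.53 to 1.55). Against untraced replicate 1 its log2 ratio was 0.84, below 2-fold. Tshr had a log2 ratio of 1.00 in all other neurons as well. Rarb had 51 and 94 UMIs, a log2 ratio of -0.10 (-0.62 to 0.40), and did not differ beyond counting error. Because membership rests on such genes, these ratios describe the nuclei that were given the name.

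Gad1 was lower in MIL of hemisection 1, while Gad2 and Slc6a5 were within counting error. Gad1 had 13 UMIs in 6 of 18 nuclei of hemisection 1, against 54 UMIs in 25 of 37 nuclei of uninjured 1, a log2 ratio of -1.27 (-2.27 to -0.38). Untraced replicate 1 had 18 UMIs in 8 of 12 nuclei, and the log2 ratio over it was -0.98. In MIP the log2 ratio of Gad1 was 0.45 and in all other neurons 0.37, and whether MIL differs from them was not tested. The log2 ratio was -1.22 without nuclei under 2500 UMIs, and -1.25 in the larger subtype alone. Gad2 had a log2 ratio of -0.08 (-0.81 to 0.63) and Slc6a5 of -0.46 (-0.96 to 0.02). Slc32a1 had 11 UMIs in hemisection 1 and 127 in uninjured 1, a log2 ratio of -2.75, but -0.38 over untraced replicate 1 and -2.81 in all other neurons, so its level was high in uninjured 1 in the other neurons too.

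The largest differences toward lower levels ran through all neurons. Ptgds, a prostaglandin synthase of glia and meninges, had 0 UMIs in hemisection 1 and 52 in uninjured 1, a log2 ratio of -3.34 with hemisection 1 set to 3 counts, and the exact interval reaches up to -2.99. It had 582 CPM in non-neuronal nuclei of hemisection 1, 3069 CPM in those of uninjured 1 and 1704 CPM in those of untraced replicate 1. All other neurons had a log2 ratio of -4.13 for Ptgds.

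Atp6v0c, Cst3, Atp5o, Fkbp2, Cd81, Ctnna3 and Hspa8 had log2 ratios between -4.33 and -2.30 in MIL and between -2.71 and -1.53 in all other neurons. Pdia6 had 0 UMIs in hemisection 1 and 30 in uninjured 1, with an exact interval that reaches up to -2.15. They include a proton pump subunit (Atp6v0c), an ATP synthase subunit (Atp5o), the protease inhibitor cystatin C (Cst3) and a heat shock protein (Hspa8). In non-neuronal nuclei of hemisection 1, uninjured 1 and untraced replicate 1, Atp6v0c had 133, 300 and 114 CPM and Atp5o 39.6, 119 and 37.3 CPM. For these genes hemisection 1 was below uninjured 1 but not below untraced replicate 1. Cst3, Cd81 and Ctnna3 were lower in non-neuronal nuclei of hemisection 1 than in those of both uninjured libraries. Hspa8, Fkbp2 and Pdia6 had 102, 25.4 and 53.7 CPM there, against 360, 79.2 and 74.7 CPM in uninjured 1. In untraced replicate 1 they had 124, 28.0 and 55.7 CPM, close to hemisection 1. These differences were not tested. The part of RNA from outside the nuclei in these counts was not tested.

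The mitochondrially encoded genes, which are transcribed outside the nucleus, had the largest median difference among the lists over uninjured 1. All 11 members past the filter were at least 2-fold lower in MIL of hemisection 1 than of uninjured 1, 8 of them also against untraced replicate 1, with a median log2 ratio of -4.18 in MIL and -2.88 in all other neurons. Over untraced replicate 1 their median was -2.10, smaller in size than the 2.38 of the interferon genes, which the filter had selected through hemisection 1. All 11 mitochondrial genes reached the filter's level in uninjured 1 and 4 of them in hemisection 1, so their number and median give no support. mt-Atp6 had 10 UMIs in hemisection 1, 570 in uninjured 1 and 38 in untraced replicate 1. In non-neuronal nuclei mt-Atp6 had 218 CPM in hemisection 1, 1384 CPM in uninjured 1 and 103 CPM in untraced replicate 1. There hemisection 1 was below uninjured 1 but above untraced replicate 1.

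Cholesterol synthesis genes and chaperones of the endoplasmic reticulum were lower with them. All 10 cholesterol genes past the filter were at least 2-fold lower over uninjured 1, with a median log2 ratio of -2.64, beside -2.47 in MIP and -1.94 in all other neurons, and 6 of the 10 were so against untraced replicate 1 too. All 10 reached the filter's level in uninjured 1 and 1 of them in hemisection 1, so this number and median give no support either. Cyp51, a sterol demethylase, had 3, 46 and 9 UMIs in hemisection 1, uninjured 1 and untraced replicate 1, a log2 ratio of -3.16 (-5.49 to -1.52). Srebf2, the transcription factor that drives the pathway, had 10, 47 and 11 UMIs, and its log2 ratio was -1.45 over uninjured 1 and -0.65 over untraced replicate 1. In non-neuronal nuclei Cyp51 had 19.8 CPM in hemisection 1, 155 CPM in uninjured 1 and 85.4 CPM in untraced replicate 1. The sterol regulatory element, searched as TCACNCCAC on both strands in the same promoters, was found in 1 of the 6 members with an entry, Hmgcs1, and in 330 of 27025 promoters (1.22%).
Hmgcs1, chr13:119690204-119690232, plus strand: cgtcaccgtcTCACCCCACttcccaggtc
Of the 11 chaperone and unfolded protein genes 10 were at least 2-fold lower over uninjured 1, and 6 against both libraries, with a median of -2.29. In uninjured 1 10 of them reached the filter's level, in untraced replicate 1 11 and in hemisection 1 5, so this number gives no support. Hspa5, the main chaperone of that compartment, had 7, 80 and 8 UMIs, a log2 ratio of -2.73 over uninjured 1 and -0.71 over untraced replicate 1, so its difference was mostly one between the uninjured libraries.

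Receptor subunits, synaptic release and guidance genes stayed near the middle. None of 12 GABA-A and glycine receptor subunits and none of 16 ionotropic glutamate receptor subunits was past 2-fold (0 in each direction), with median log2 ratios of -0.02 and 0.31, beside 6.59% and 13.2% of all genes. Glra1, a glycine receptor subunit, had 72 and 109 UMIs in hemisection 1 and uninjured 1, a log2 ratio of 0.18 (-0.27 to 0.62). Of 20 synaptic release genes 1 was lower, and of 35 axon guidance and adhesion genes 2 were higher, Ntng1 and Cdh9. Of 17 axon cytoskeleton genes 4 were lower, among them the neurofilament subunits Nefl at -2.25 and Nefm at -1.61. Nefh, the third subunit, had -0.74 over uninjured 1 and 2.48 over untraced replicate 1, where it had 1 UMI. Of the 6 regeneration-associated genes past the filter, of 29 on the list, 1 was lower and 0 were higher. Of 7 Meis, Pbx, Tshz and Zic factors, a group of homeodomain and zinc finger proteins, 3 were higher, 2 of them against both uninjured libraries, with a median of 0.78. All 7 reached the filter's level in hemisection 1, 4 in uninjured 1 and 5 in untraced replicate 1, so the number of higher ones gives no support. Meis2 had 14, 5 and 3 UMIs in hemisection 1, uninjured 1 and untraced replicate 1, a log2 ratio of 2.27 (0.71 to 4.09). It reached the filter's level in hemisection 1 alone, which raises this ratio. The few peptide and calcium-buffer genes past the filter had negative ratios over uninjured 1, with -1.88 for Cck, -1.15 for Pnoc and -1.80 for Pvalb, but 1.07, -0.19 and -0.10 over untraced replicate 1. No immediate early or MHC gene passed the filter in MIL (0 of 10 and 0 of 14).

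The hemisection ratio in MIL differed from that in MIP by at least 2-fold upward for 434 of 5736 genes (7.57%) and downward for 548 (9.55%), again with no test. The MIP sums come from 46 nuclei of hemisection 1 and 79 of uninjured 1. Traced MIL nuclei are not described gene by gene, since the traced libraries held 2 of them.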

How the data were processed

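The authors deposited UMI counts for 19787 genes in 12447 nuclei, each with a subtype name. The submitters' processing notes list Cell Ranger (version 4.0.0), Seurat (version 3) and the genome build mm10, which is GRCm38. How nuclei were filtered, doublets treated and subtypes assigned: not given in the sources used here. Of the nuclei 4727 carry no barcode sequence, 1 of them MIL. Among the rest 4 barcode sequences occurred in more than 1 library. One column of per-sample values (1) was not used.

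The members, gene lists and tests were chosen with earlier results of these data known. Numbers of nuclei per family were tested with edgeR 4.0.16 (quasi-likelihood, R 4.3.3, offset the log of all neurons, 8 libraries, 3 residual degrees of freedom) with Benjamini-Hochberg adjustment over 11 families. On simulated numbers of hemisection against uninjured, a 4-fold change of MIL was found in 20 of 20 runs, and 0 of 200 unchanged families were called; the contrasts of traced and regenerating neurons, with few MIL nuclei, were not simulated. Replicate numbers of experiment 1 are those of the titles, which do not name animals.

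Levels are summed UMIs scaled to counts per 1000000 (CPM), averaged over libraries with at least 10 nuclei on either side, and no pseudocount was added. Named genes led by ratio among those in at least 25% of nuclei at a mean of at least 50 CPM. Lists used genes with at least 20 CPM. A test of genes within MIL was planned for libraries with at least 10 MIL nuclei, which leave no residual degrees of freedom, so TMM-scaled ratios with exact intervals were used. A fit over all 7 libraries with a MIL nucleus (edgeR, and DESeq2 1.42.0) was added after seeing the data. The ranking rule for genes after hemisection was set once the numbers of nuclei were known. Library sums in MIL ran from 141704 to 365666 UMIs. Promoters are RefSeq's, of GRCm38.p6, and gene positions are GENCODE's of GRCm38. Figures used matplotlib 3.10.9. Results of some genes are not reported here, so the larger MIL subtype is called by its size.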

Additional observations from a re-analysis of the deposited data

How the results depend on the processing

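Altogether 186 alternative values were computed. The log2 ratio of the MIL share, traced over untraced, changed sign for the larger MIL subtype alone (0.18), for inhibitory neurons as the total (0.39) and without untraced replicate 1 (1.20), and ran between -0.83 and 1.20 when 1 library was left out. With the replicate block it was -0.54 (edgeR, adjusted p = 0.663). That of hemisection over uninjured changed sign for MIL_Arhgap6 (0.17), for the inhibitory total (0.23) and without hemisection 2 (0.063), and ran between -0.88 and 0.063 when 1 library was left out. That of regenerating over traced ran between -2.51 and -2.10. No setting brought an adjusted p of a share below 0.05.

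Of genes past 2-fold after hemisection, 2800 were higher and 1919 lower with no filter, 555 higher over untraced replicate 1, and 310 lower with equal numbers of both subtypes. For MIL against MIP after hemisection there were 2666 higher and 1934 lower with no filter, and 211 higher with other neurons in place of MIP. Genes at least 2-fold higher in MIL in every library were 221 over MIP and 139 over other neurons without uninjured 1, and 565 and 306 after thinning to 1000 UMIs. The cause was not tested. Of 114 values of named genes, 88 moved within their spread, 25 moved more (18 of the 38 thinned values among them) and 1 reversed, Pdzrn3 with a log2 ratio of 0.53 after thinning. The gene fit over 7 libraries called 5 genes for hemisection over uninjured, 0 with DESeq2, 9 with RLE factors and between 1 and 60 when 1 library was left out. For traced over untraced it called 0, with 8 under RLE factors and between 0 and 4 when 1 library was left out. No paired gene fit was possible because traced and untraced libraries with MIL nuclei share 1 replicate number. For the contrasts with traced neurons, fits without traced replicate 1 and of MIL_Arhgap6 gave no value, since those nuclei were at 0. Counts of genes in the larger subtype alone, every setting without nuclei under 2500 UMIs and the fit over 7 libraries were chosen after seeing the data.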
